A study of Mus musculus with 12 samples.

Results

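In S100β-v-erbB/p53-/- TSC1 mouse cells kept in hypoxia, brefeldin A (BFA) and EHT-1864 were set together against the solvent DMSO, to find the genes that moved the same way with both compounds. The comparison set 9 of the 12 arrays of the series against each other, while all 12 were fitted to estimate the spread. In that fit 4041 of 22206 probes (transcript clusters) were called in the same direction with both compounds, 1573 higher and 2468 lower. With the 9 hypoxia arrays fitted alone, 3389 were called, 1245 higher and 2144 lower. A probe counted when 3 limma comparisons with hypoxia and DMSO (BFA, EHT-1864, and the mean of both compound groups) all had an adjusted p under 0.05 and the same sign. The BFA and EHT-1864 comparisons share the DMSO arrays, so their values are given side by side and no correlation between them is given.

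Hypoxia with BFA, hypoxia with EHT-1864, hypoxia with DMSO and normoxia with DMSO were represented by 3 arrays each, and the series design names 3 independent cultures. Whether equally numbered arrays came from 1 culture is not stated, so p-values measure the spread between these arrays, which may be partly technical. All groups were exposed for 16 h, are of the FVB-NJ strain, lack p53 and carry the v-erbB oncogene under the S100β promoter, and no wild-type cells are among them. The EHT-1864 dose was 1 µM. The BFA dose is stated as 1 µM in the protocol and as 0.1 µM in the series title, which was not settled.

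Brefeldin A traps ARF GTPases with their exchange factors, so that proteins made in the endoplasmic reticulum (ER) no longer reach the Golgi. EHT-1864 binds Rac GTPases, which drive actin assembly at the cell edge, and keeps them inactive. In low oxygen the hypoxia-inducible factor HIF-1 is stabilised and raises genes of glucose uptake, glycolysis, collagen hydroxylation and pH control. Cells under protein or metabolic stress slow translation and raise the transcription factors ATF4, ATF3 and CHOP, a programme known as the integrated stress response.

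Several measures of whole arrays differed between the compound and the DMSO arrays, in a way that depends on the level of a gene. The SD of all log2 signals of an array averaged 2.28 with BFA, 2.41 with EHT-1864 and 2.51 with DMSO. The hybridization controls, which are added transcripts and no RNA of the cells, averaged 10.93 ± 0.12 with BFA, 10.25 ± 0.07 with EHT-1864 and 9.76 ± 0.06 with DMSO (log2, SD, n = 3). The floor, below which 95 of 100 neg control probes of an array lie, averaged 6.49 with BFA, 6.01 with EHT-1864 and 5.61 with DMSO. For each of these 3 measures the 6 compound arrays did not overlap the 3 DMSO arrays (exact permutation test, two-sided, p = 0.0238, the smallest that 84 splits allow). By the same exact test p was 0.119 for the poly-A controls, 0.595 for the median of the pos controls and 0.0714 for that of the neg controls, and these measures overlapped between the groups. In 10 bins of probes ranked by mean level, the median of the pooled log2 difference (mean of both compound groups minus DMSO) reached 0.34 in the fourth bin and -0.26 in the eighth, and lay between -0.07 and 0.08 after cyclic loess normalization of the arrays. Apart from Fyttd1, the genes named below as called with both compounds kept that call after loess, and list counts after loess are given where they moved.

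**Figure D1:**
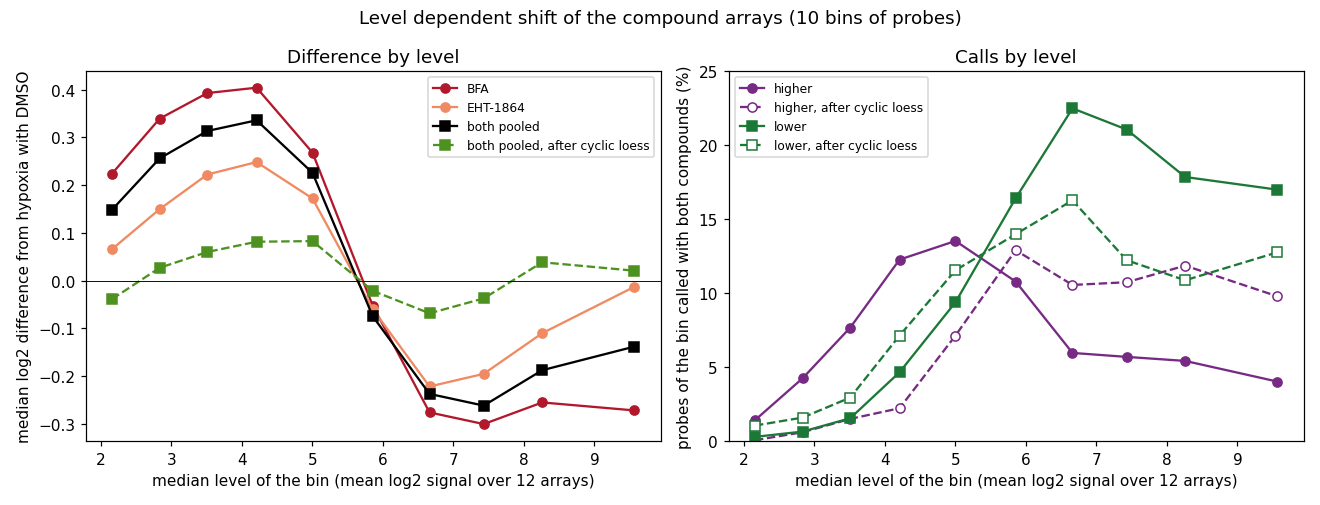
Left, median log2 difference from hypoxia with DMSO for each of 10 bins of probes, against the median level of the bin, for BFA, EHT-1864, both pooled, and both pooled after cyclic loess. Right, the percentage of each bin's probes called with both compounds. Before loess dim probes were called higher more often than lower, and bright probes lower more often than higher. After loess the 2 curves lie closer in most bins, and dim probes too were called lower more often than higher.

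By the pooled difference alone, 9972 probes were called at a limma adjusted p under 0.05 (44.9% of those tested), 4852 higher (21.8%) and 5120 lower (23.1%). With BFA 5799 probes were higher (26.1%) and 5470 lower (24.6%), and with EHT-1864 2893 were higher (13%) and 3874 lower (17.4%). The same-direction calls were 7.08% of all probes for higher and 11.1% for lower. After cyclic loess 1492 probes were called higher with both (6.72%) and 2003 lower (9.02%). Of the probes first called, 955 of 1573 kept the higher call and 1818 of 2468 kept the lower one, and 0 turned round. When the 6 compound arrays were fitted as 1 group, so that the gap between BFA and EHT-1864 counts as spread, the pooled calls were 3757.

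In the deposited values the shared rises were dimmer than the shared falls, and this changed with loess. Of the higher probes 573 of 1573 were above the floor on all 3 arrays of a hypoxia group, compared with 2188 of 2468 lower probes. Among the 10539 probes above the floor, 5.44% were called higher and 20.8% lower with both. After cyclic loess 1086 of these 10539 probes were called higher and 1556 lower with both, of 1492 higher and 2003 lower calls over all probes. List counts after loess, given further on, belong beside these counts, since the shares of 5.44% and 20.8% are of the deposited values. Because the floor is higher on the compound arrays, a gene passes it more easily through the DMSO arrays, where genes that fell are high. The number of higher calls was 954 without DMSO array 3, 1002 without DMSO array 1 and 960 without EHT-1864 array 2. The share of the same-direction calls that were higher was 38.9%, and it was 51.4% with median subtraction and 49.3% with a further quantile normalization. A difference of at least 2-fold with each compound was reached by 38 higher and 574 lower probes, 22 and 510 of them above the floor.

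The median higher probe rose by 0.74 on the log2 scale with BFA and by 0.61 with EHT-1864, and the median lower probe fell by 1.07 with BFA and by 0.81 with EHT-1864. These medians are of probes chosen by the call, so they describe the selection. Among the higher probes, 222 changed more with BFA, 80 more with EHT-1864 and 1271 had no called difference between the compounds, where 36.5% of all probes had one. Among the lower probes these counts were 908, 174 and 1386. At the border of the rule, Fyttd1 entered with an EHT-1864 adjusted p of 0.04995 in the limma fit, and Tmem243 stayed out with a BFA adjusted p of 0.05001.

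Among the largest shared rises were transcription factors of the stress response. Atf3, which encodes a stress-induced bZIP factor, had log2 signals of 9.67, 9.88 and 9.65 with BFA and 8.94, 8.98 and 8.92 with EHT-1864, against 6.65, 6.74 and 6.61 with DMSO. All 6 compound arrays lay above the DMSO arrays, and the BFA arrays above the EHT-1864 arrays. The rise was 3.07 ± 0.13 with BFA and 2.28 ± 0.13 with EHT-1864 (± is the SE of the limma fit here and below, n = 3 arrays a group), with a pooled adjusted p of 1.11e-08. Ddit3, which encodes CHOP, had signals of 11.30, 11.46 and 11.39 with BFA and 10.66, 10.31 and 10.69 with EHT-1864, against 9.14, 8.77 and 8.77 with DMSO on its brighter probe. It rose by 2.49 ± 0.16 with BFA and 1.66 ± 0.16 with EHT-1864 (limma pooled adjusted p = 2.37e-07), and its other probe rose by 2.69 ± 0.15 with BFA and 1.77 ± 0.15 with EHT-1864. Both rises were larger with BFA, by 0.79 ± 0.13 for Atf3 and 0.83 ± 0.16 for the brighter Ddit3 probe.

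The Atf3 promoter is shown because Atf3 had the smallest pooled adjusted p of the 12 largest rises and its promoter holds the letters of a C/EBP-ATF response element, a site type bound by ATF4 with C/EBP factors. The motif searched was TGATGCAA on either strand, which occurs in 0.895% of 32851 promoters of 250 bases before to 50 after a gene start (RefSeq, GRCm38.p6). Counted by gene, 1.03% of 27025 genes with a promoter there hold it. The motif lies in the promoters of 6 of 25 stress response genes with a promoter in that set (Atf3, Chac1, Fgf21, Nupr1, Slc7a11 and Vldlr). Of these, Atf3 and Nupr1 were called higher with both compounds. Fgf21 and Slc7a11 were called in opposite directions, and Chac1 and Vldlr were not called with both. Among the 10 largest rises with a promoter there, Atf3 alone held the motif. A match describes letters and does not show binding. The 150 bases before the Atf3 start (chr1:191183334-191183483, minus strand) follow, with the motif, read on the other strand, in capitals 110 bases before the start.
Atf3: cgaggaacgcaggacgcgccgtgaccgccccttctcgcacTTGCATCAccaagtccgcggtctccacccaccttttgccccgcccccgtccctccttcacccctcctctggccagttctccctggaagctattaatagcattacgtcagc

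Few other members of the ATF4 and stress response list were called with both compounds. Of 27 measured members, 4 were called higher with both compounds and 0 lower (7 and 0 after loess). Called higher were 7.08% of all probes and 5.44% of those above the floor, and after loess 1086 of the 10539 above the floor. The median pooled difference of the list was 0.27, against 0.09 over all probes and -0.22 over probes above the floor. Besides Atf3 and Ddit3, Cebpb, a partner of both factors, rose by 1.15 ± 0.19 with BFA and 0.66 ± 0.19 with EHT-1864 (limma pooled adjusted p = 8.01e-04). Atf4 itself rose by 1.09 ± 0.12 with BFA and had a difference of 0.15 ± 0.12 with EHT-1864 (adjusted p = 0.354 in limma). In this list 2 members were called in opposite directions, among them the cystine transporter Slc7a11, described further on. Others, such as Chac1 (1.37 with BFA and -0.21 with EHT-1864), differed in sign without a call with both compounds. The count of higher members was 2 without EHT-1864 array 3 and 2 without DMSO array 2.

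Hspa1a, an inducible cytosolic HSP70 chaperone, had signals of 8.41, 8.36 and 8.41 with BFA and 11.30, 11.17 and 10.73 with EHT-1864, against 7.35, 7.34 and 7.07 with DMSO. The groups did not overlap, and the rise was 1.14 ± 0.15 with BFA and 3.81 ± 0.15 with EHT-1864 (limma pooled adjusted p = 7.26e-08). Hspa1a has a near-identical neighbour, Hspa1b, so probes may read both genes. Nr1d2, a circadian repressor of the REV-ERB family, had 7.89, 8.41 and 7.97 with BFA and 8.91, 8.96 and 8.89 with EHT-1864, against 6.77, 7.11 and 6.89 with DMSO. It rose by 1.17 ± 0.15 with BFA and 2.00 ± 0.15 with EHT-1864 (limma pooled adjusted p = 1.43e-06).

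For some rises no difference between the compounds was called. Pip4p1, a phosphoinositide phosphatase of the lysosome, rose by 1.22 ± 0.14 with BFA and 1.47 ± 0.14 with EHT-1864. Gmds, which starts the synthesis of GDP-fucose, rose by 1.21 ± 0.20 with BFA and 1.26 ± 0.20 with EHT-1864. Ccdc59 rose by 1.19 ± 0.12 with BFA and 1.12 ± 0.12 with EHT-1864. The differences between compounds were -0.25 ± 0.14, -0.05 ± 0.20 and 0.06 ± 0.12, with limma adjusted p of 0.197, 0.867 and 0.724, which does not show that they are equal.

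Further rises started from DMSO levels below the floor and are given as bounds, the brighter group's mean against, for each dim array, the higher of its floor and the gene's own signal. An adjusted p beside a bound, here and below, is of the limma fit to the deposited values and does not test the bound. Ptgs2, which encodes the prostaglandin synthase COX-2, had 6.99, 7.06 and 6.85 with BFA and 6.64, 6.67 and 6.20 with EHT-1864, against 4.66, 4.52 and 4.13 with DMSO. It was at least 2.56-fold higher with BFA and at least 1.85-fold higher with EHT-1864 (limma adjusted p = 2.41e-07 and 6.39e-06). These bounds of rises use the DMSO floor, which averaged 5.61, against 6.49 with BFA and 6.01 with EHT-1864. What the higher floor of the compound arrays adds to the rises was not tested. The growth factor Bdnf, the matricellular protein Ccn3 and the granin Scg2 were below the floor on all BFA and DMSO arrays, so no BFA fold is given. With EHT-1864, Scg2 had 8.61, 9.19 and 8.21, against 2.40, 3.06 and 3.20 with DMSO, and was at least 8.32-fold higher (limma adjusted p = 6.78e-08). Ccn3 was at least 5.74-fold and Bdnf at least 2.97-fold higher with EHT-1864 (limma adjusted p = 7.77e-08 and 7.03e-06).

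The Scg2 promoter is shown for its cyclic AMP response element (TGACGTCA, which reads the same on both strands), found in 1.79% of all promoters of that set. Counted by gene, 2.03% of genes with a promoter there hold it. Scg2, which was above the floor with EHT-1864 alone, was the only gene among the 10 rises with a promoter there that held the motif. Among the 6 such falls Slc38a6 held it. The 150 bases before the Scg2 start (chr1:79440027-79440176, minus strand) carry the motif, in capitals, 68 bases before the start.
Scg2: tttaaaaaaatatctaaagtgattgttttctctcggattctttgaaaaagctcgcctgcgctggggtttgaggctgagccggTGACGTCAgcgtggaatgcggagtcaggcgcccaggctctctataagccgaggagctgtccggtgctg

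**Figure D2:**
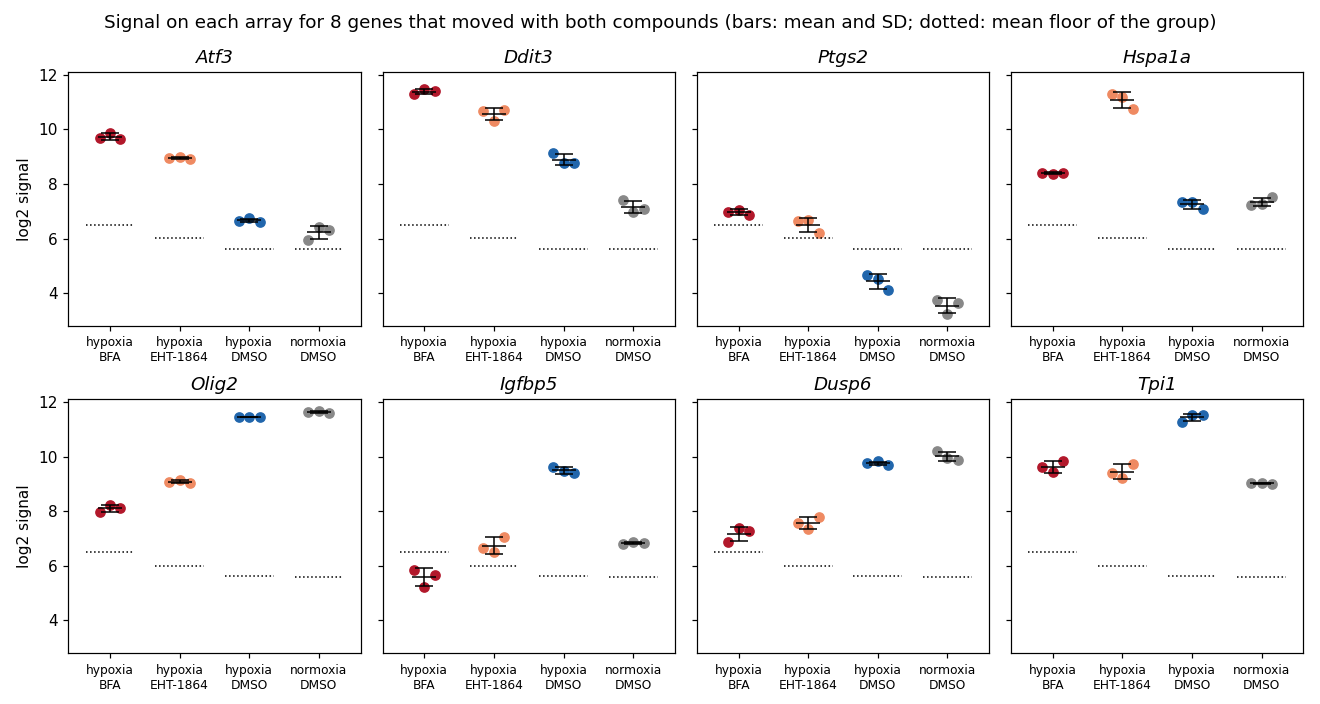
Log2 signal of 8 genes on each array, with BFA, EHT-1864 and DMSO in hypoxia and DMSO in normoxia from left to right, bars giving the mean and SD of 3 arrays and dotted lines the mean floor of the group. Atf3, Ddit3, Ptgs2 and Hspa1a were higher and Olig2, Igfbp5, Dusp6 and Tpi1 lower on all 6 compound arrays than on the 3 hypoxia DMSO arrays, while Tpi1 and Igfbp5 in normoxia lay nearer the compound arrays.

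Among the largest shared falls was Igfbp5, which encodes a secreted binding protein of insulin-like growth factors. Its signals were 5.85, 5.21 and 5.67 with BFA, below the floor, and 6.66, 6.49 and 7.07 with EHT-1864, against 9.63, 9.47 and 9.38 with DMSO. It was at least 8.02-fold lower with BFA (limma adjusted p = 6.09e-09) and fell by 2.75 on the log2 scale with EHT-1864 (SE 0.18). In normoxia it had 6.80, 6.87 and 6.84. Olig2, a transcription factor of the oligodendrocyte lineage, had 7.98, 8.23 and 8.10 with BFA and 9.07, 9.14 and 9.02 with EHT-1864, against 11.43, 11.44 and 11.45 with DMSO. All groups stood apart, with differences of -3.34 ± 0.11 for BFA and -2.36 ± 0.11 for EHT-1864 (limma pooled adjusted p = 4.60e-09).

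Genes of the extracellular matrix were among the falls. Has2, which makes hyaluronan, had 6.58, 6.51 and 6.49 with BFA (2 of 3 arrays above the floor) and 7.64, 6.80 and 7.67 with EHT-1864, against 9.77, 9.95 and 9.78 with DMSO. It fell by 3.31 on the log2 scale with BFA and by 2.46 with EHT-1864 (SE 0.19 each, limma pooled adjusted p = 1.05e-07). Col2a1, a fibrillar collagen chain, had differences of -2.69 ± 0.16 with BFA and -2.80 ± 0.16 with EHT-1864, with 1 BFA array and 2 EHT-1864 arrays above the floor. Vit, a matrix protein, was at least 2.53-fold lower with BFA and at least 3.55-fold lower with EHT-1864 (limma adjusted p = 2.13e-08 and 3.17e-08). Prss35, a secreted member of the serine protease family, was at least 1.08-fold and 1.52-fold lower (limma adjusted p = 1.80e-07 and 3.85e-07).

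Other large falls were of genes with varied roles. Kbtbd11, a kelch-repeat protein, had 7.30, 6.56 and 6.89 with BFA and 6.77, 6.36 and 6.75 with EHT-1864, against 9.49, 9.63 and 9.54 with DMSO, and fell by 2.63 on the log2 scale with BFA and by 2.92 with EHT-1864 (SE 0.18 each). Slc38a6, an amino acid carrier family member, had differences of -2.74 ± 0.29 with BFA and -2.66 ± 0.29 with EHT-1864, with 1 and 2 arrays above the floor. Elk3, an ETS factor regulated by ERK, was at least 2.68-fold lower with BFA (limma adjusted p = 1.25e-08). With EHT-1864 it had a difference of -2.32 ± 0.15, with 1 array above the floor. The Ras-like gene Rasl11a was at least 2.03-fold lower with BFA and at least 2.84-fold lower with EHT-1864 (limma adjusted p = 1.06e-09 and 7.77e-08). Cbln1, a synapse organiser, was at least 1.23-fold and 1.73-fold lower (limma adjusted p = 3.33e-08 and 3.80e-07).

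**Figure D3:**
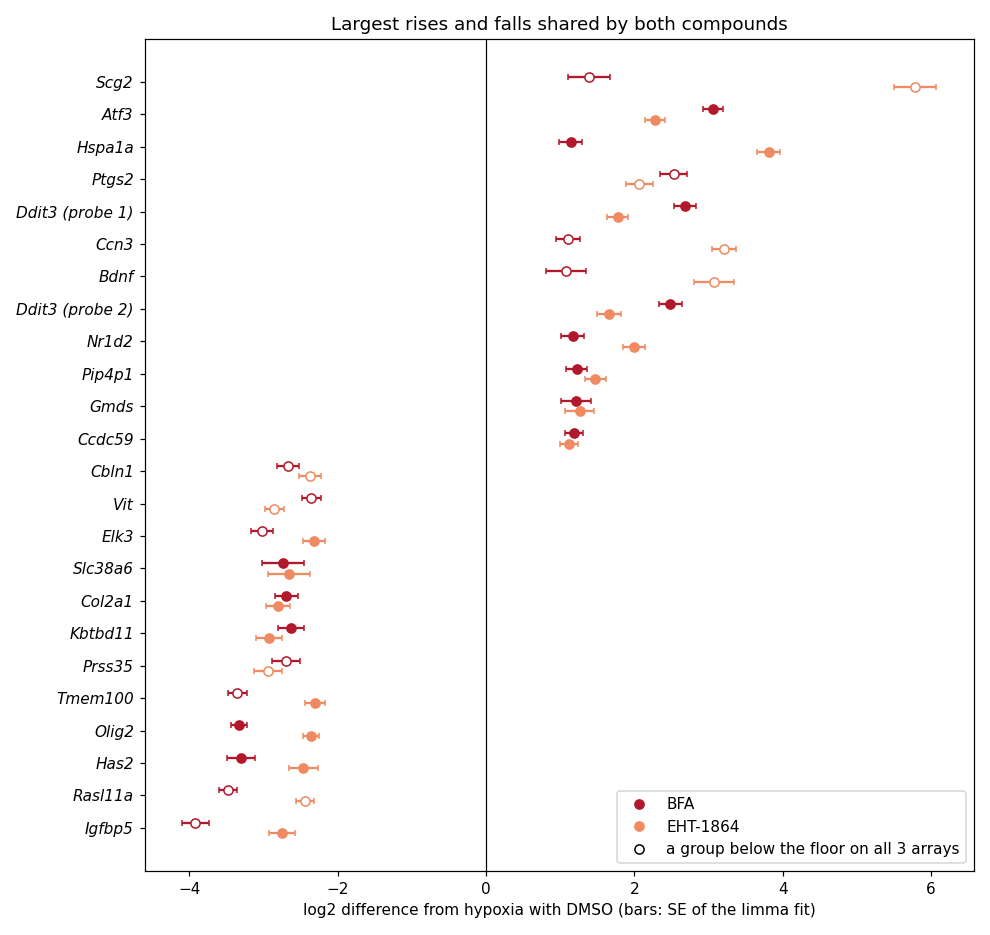
Log2 difference from hypoxia with DMSO for the 12 probes of each direction with the largest smaller change, for BFA (dark red) and EHT-1864 (orange), with bars for the SE of the limma fit. Open points mark comparisons in which a group lay below the floor on all 3 arrays, where the plotted difference is not a measured fold; Scg2, Hspa1a, Ccn3 and Bdnf lie farther right with EHT-1864 and Igfbp5, Rasl11a and Tmem100 farther left with BFA.

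Most measured targets of HIF-1 were lower with both compounds. Of 29 measured HIF-1 targets, 19 were called lower with both and 0 higher, where 11.1% of all probes and 20.8% of those above the floor were called lower. After loess 16 were called lower, and over the alternatives run for the lists, which leave out array weights and the fit of 1 compound group, the count lay between 16 and 20. Their median pooled log2 difference was -1.30, against 0.09 over all probes and -0.22 over probes above the floor, with a median of -1.13 with BFA and -1.79 with EHT-1864. The remaining members included Vegfa, the main angiogenic factor, with differences of -0.36 ± 0.20 with BFA (limma adjusted p = 0.152) and -1.16 ± 0.20 with EHT-1864, and the glucose transporter Slc2a1, with -0.34 ± 0.14 (limma adjusted p = 0.0555) and -0.98 ± 0.14. Ero1a, an ER oxidase, had log2 differences of 0.47 with BFA and -1.39 with EHT-1864.

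P4ha2, a catalytic chain of the enzyme that hydroxylates collagen prolines, had 8.88, 8.99 and 9.23 with BFA and 6.48, 6.39 and 6.89 with EHT-1864, against 10.38, 10.17 and 10.32 with DMSO. The BFA arrays lay between the EHT-1864 and the DMSO arrays, and in normoxia the signals were 6.26, 6.24 and 6.22. The differences from DMSO were -1.26 ± 0.15 with BFA and -3.70 ± 0.15 with EHT-1864 (limma pooled adjusted p = 4.37e-08). Ankrd37, an ankyrin-repeat protein and HIF-1 target, had 8.02, 7.88 and 7.91 with BFA and 5.87, 5.67 and 6.32 with EHT-1864 (1 array above the floor), against 9.34, 9.29 and 9.28 with DMSO. No array of a compound group reached the DMSO range. Ppp1r3c, a glycogen-targeting phosphatase subunit, had 5.97, 5.99 and 5.98 with BFA and 5.67, 5.47 and 5.38 with EHT-1864, below the floor, against 8.39, 7.97 and 8.37 with DMSO. It was at least 3.37-fold lower with BFA and at least 4.72-fold lower with EHT-1864 (limma adjusted p = 6.99e-08 and 8.92e-08). The carbonic anhydrase Car9 was at least 1.56-fold and 2.19-fold lower (limma adjusted p = 2.49e-05 and 5.52e-06). Hif1a, the oxygen-regulated subunit, had differences of -1.03 ± 0.13 with BFA and -0.13 ± 0.13 with EHT-1864 (limma adjusted p = 0.486).

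P4ha2 and Ppp1r3c promoters are shown as examples of HIF-1 targets that were lower with both and hold the core of the HIF binding site. The core ACGTG, searched on both strands, lies in 17 of 23 HIF-1 targets with a promoter in the set (12 of 16 called lower), whereas 19.6% of all promoters and 21.8% of genes with a promoter there hold it. Of the 7 such targets not called lower 5 hold it, as do 5 of the 10 largest rises and 0 of the 6 largest falls with a promoter. The 150 bases before each start are chr11:54100774-54100923 on the plus strand for P4ha2 and chr19:36736605-36736754 on the minus strand for Ppp1r3c, with the core in capitals. It lies 78 bases before the start in P4ha2 and 104 bases before it in Ppp1r3c, where overlapping cores on both strands form 1 run.
P4ha2: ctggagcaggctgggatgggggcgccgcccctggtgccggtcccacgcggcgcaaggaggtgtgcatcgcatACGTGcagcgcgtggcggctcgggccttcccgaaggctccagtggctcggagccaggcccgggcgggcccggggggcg
Ppp1r3c: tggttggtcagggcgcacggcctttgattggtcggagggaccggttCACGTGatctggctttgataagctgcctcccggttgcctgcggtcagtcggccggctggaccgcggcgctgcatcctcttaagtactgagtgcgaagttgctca

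**Figure D4:**
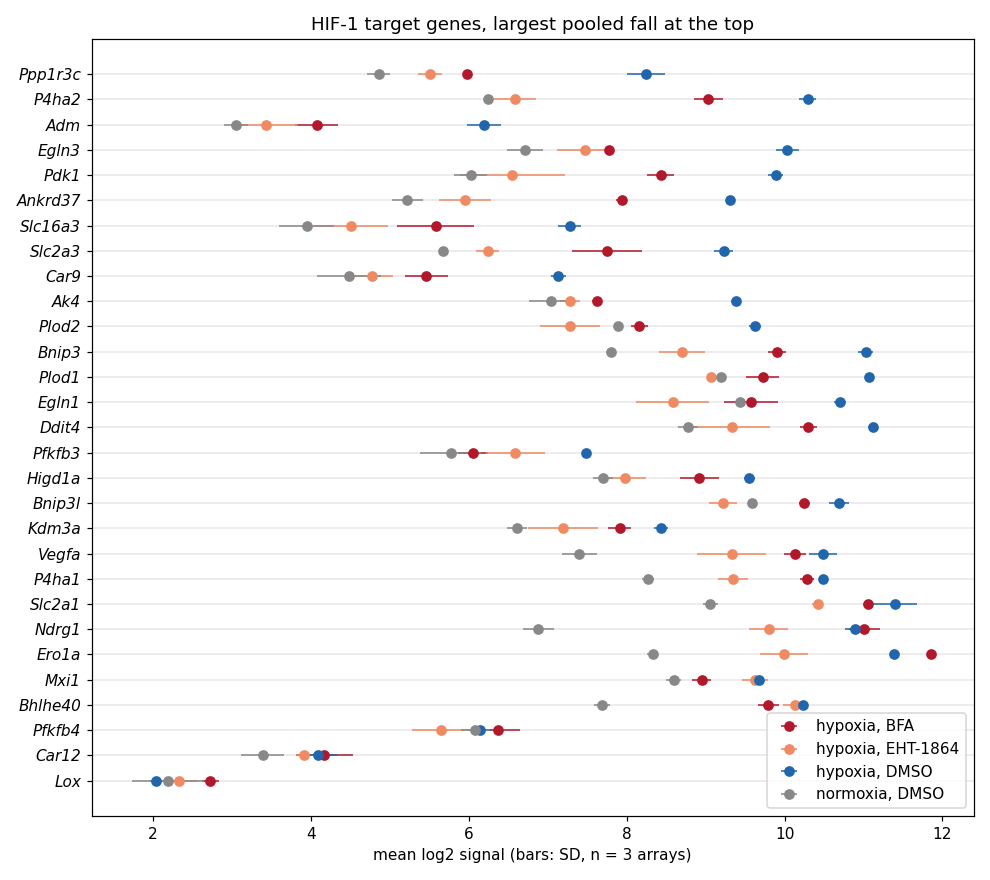
Mean log2 signal (bars: SD, n = 3 arrays) of 29 HIF-1 target genes with BFA, EHT-1864 and DMSO in hypoxia and with DMSO in normoxia, ordered from the largest pooled fall at the top. Most EHT-1864 means lie left of the hypoxia DMSO means and the BFA means lie between them for many genes.

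Most genes of glycolysis, some of which HIF-1 also controls, were lower with both. Of 14 measured genes, 12 were called lower with both compounds and 0 higher (10 after loess), against 11.1% of all probes called lower. Among probes above the floor 20.8% were, and the median pooled difference of the list was -1.06. Tpi1, triosephosphate isomerase, had 9.60, 9.42 and 9.85 with BFA and 9.41, 9.21 and 9.73 with EHT-1864, against 11.28, 11.51 and 11.52 with DMSO. The compound arrays overlapped each other and lay below the DMSO arrays, and the pooled adjusted p was 3.98e-07 in limma. The phosphofructokinase Pfkl had differences of -1.40 ± 0.13 with BFA and -2.09 ± 0.13 with EHT-1864, and Pgam1, phosphoglycerate mutase, -1.17 ± 0.12 and -1.62 ± 0.12.

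Most genes of sterol synthesis and uptake were lower with both. Of 19 measured genes, 14 were called lower and 0 higher, with 9 lower after loess and 9 without DMSO array 1. The shares called lower were 11.1% of all probes and 20.8% of those above the floor. The median pooled difference of the list was -0.75. Hmgcs1, the HMG-CoA synthase, had 8.89, 9.16 and 9.20 with BFA and 10.35, 10.21 and 10.12 with EHT-1864, against 11.39, 11.40 and 11.33 with DMSO. The groups did not overlap, and it fell by 2.29 on the log2 scale with BFA and by 1.15 with EHT-1864 (SE 0.12 each, limma pooled adjusted p = 1.37e-07). Sqle, squalene epoxidase, had differences of -1.69 ± 0.14 with BFA and -1.30 ± 0.14 with EHT-1864.

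**Figure D5:**
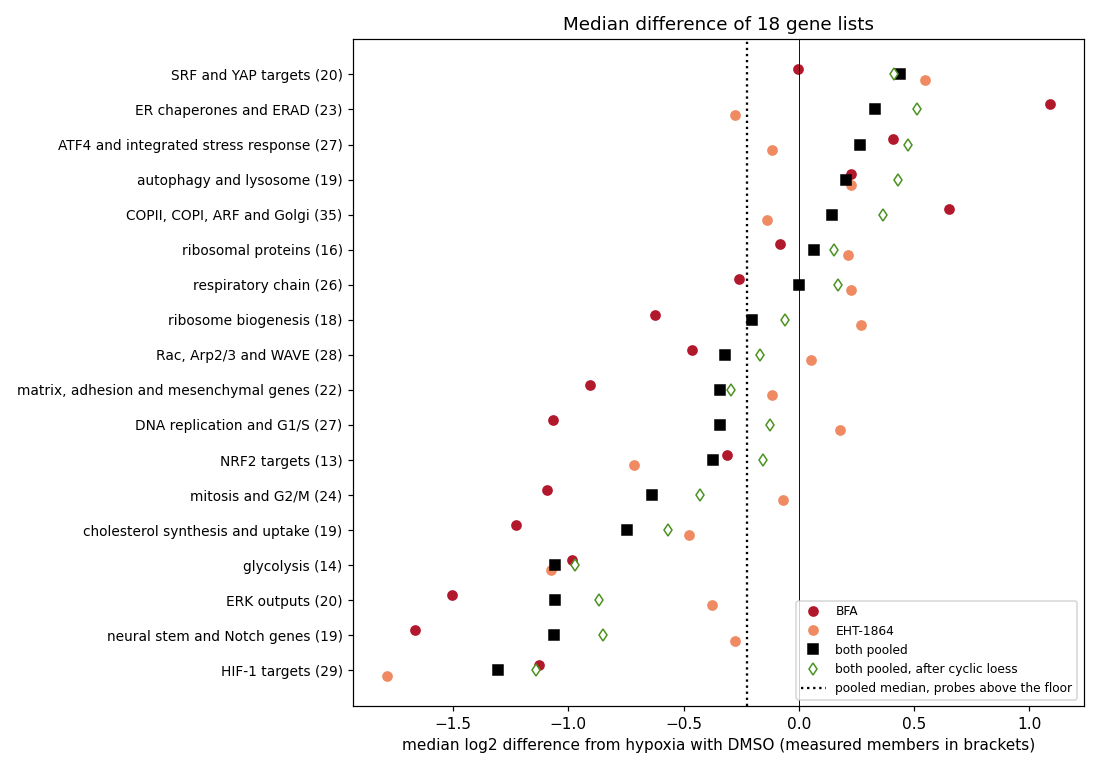
Median log2 difference from hypoxia with DMSO over the measured members of 18 gene lists, for BFA, EHT-1864, both pooled, and both pooled after cyclic loess, with the dotted line at the median of probes above the floor. HIF-1 targets, neural stem and Notch genes, ERK outputs and glycolysis had pooled medians below -1, and ER chaperones and ERAD genes had a BFA median of 1.09 and an EHT-1864 median of -0.28.

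Some outputs of ERK signalling were lower with both. Of 20 measured ERK outputs, 9 were called lower with both and 0 higher (8 and 1 after loess), with a median pooled difference of -1.06. Over all probes 11.1% were called lower with both, and over those above the floor 20.8%. Dusp6, an ERK phosphatase, had 6.87, 7.37 and 7.27 with BFA and 7.57, 7.33 and 7.80 with EHT-1864, against 9.75, 9.82 and 9.70 with DMSO, with differences of -2.58 ± 0.16 and -2.19 ± 0.16 (limma pooled adjusted p = 1.11e-07). Etv5, an ETS factor, had differences of -1.97 ± 0.12 with BFA and -1.27 ± 0.12 with EHT-1864. Spry4, an inhibitor of receptor signalling, was at least 3.47-fold lower with BFA (limma adjusted p = 2.91e-07) and had a difference of -2.30 ± 0.16 with EHT-1864, with 1 array above the floor.

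Most measured markers of the oligodendrocyte lineage were lower with both. Of 13 measured lineage markers, 8 were called lower with both and 0 higher, as after loess, with a median of -2.60 with BFA and -0.55 with EHT-1864. For comparison, 11.1% of all probes and 20.8% of probes above the floor were called lower with both. Their mean log2 signal lay between 6.88 and 6.91 on the BFA arrays, 8.22 and 8.42 on the EHT-1864 arrays and 9.08 and 9.15 on the DMSO arrays. Gpr17, a receptor of oligodendrocyte precursors, had 6.16, 6.49 and 6.50 with BFA (2 arrays above the floor) and 8.49, 8.15 and 8.05 with EHT-1864, against 10.49, 10.42 and 10.40 with DMSO. Olig1 had differences of -4.21 ± 0.16 with BFA and -1.36 ± 0.16 with EHT-1864, which differ by -2.85 ± 0.16 (limma adjusted p = 5.08e-08). In bulk RNA fewer cells of a type and less RNA per cell cannot be told apart.

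Of 19 neural stem and Notch genes, 7 were called lower with both and 0 higher, also after loess. The share called lower was 11.1% of all probes and 20.8% of those above the floor. The Notch ligand Dll3 had 5.34, 5.53 and 5.60 with BFA, below the floor, and 7.71, 7.35 and 7.23 with EHT-1864, against 9.60, 9.78 and 9.77 with DMSO, and was at least 9.37-fold lower with BFA (limma adjusted p = 1.06e-09). Sox2, a stem cell factor, had differences of -1.66 ± 0.13 with BFA and -0.78 ± 0.13 with EHT-1864. Some markers of astrocytes and neurons were above the floor and lower with both compounds. Slc1a3, a glutamate transporter of astrocytes, had differences of -1.64 ± 0.19 with BFA and -1.12 ± 0.19 with EHT-1864, and the neuronal Map2 had -1.92 ± 0.12 and -0.57 ± 0.12. Of 8 astrocyte markers 2 were lower and 1 higher with both, and of 10 neuronal markers 1 was lower and 0 higher (1 and 1 after loess). Endothelial markers were below the floor on every hypoxia array (0 of 7), and of the microglia and macrophage markers 1 of 10 was above it on any array of each hypoxia group. The part of other cells in the results was not tested.

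Autophagy and lysosome genes held 6 shared rises of 19 measured (7 after loess) with 0 lower, and a median pooled difference of 0.21. Among all probes 7.08% were called higher with both, and among those above the floor 5.44%. After loess 1086 of the 10539 probes above the floor were. Sqstm1, the autophagy receptor p62, had 11.02, 11.01 and 11.01 with BFA and 11.02, 10.90 and 10.94 with EHT-1864, against 10.07, 10.08 and 10.05 with DMSO. The rise was 0.95 ± 0.10 with BFA and 0.89 ± 0.10 with EHT-1864 (limma pooled adjusted p = 4.22e-06). The lysosomal protease Ctsl rose by 2.11 ± 0.14 with BFA and 0.84 ± 0.14 with EHT-1864, and Gabarapl1, an ATG8 family protein, by 0.43 ± 0.11 and 1.37 ± 0.11.

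The remaining lists held calls in both directions or few calls. For comparison, 7.08% of all probes were called higher and 11.1% lower with both, and of those above the floor 5.44% and 20.8%. Of 20 SRF and YAP targets 4 were higher and 1 lower, among the higher ones the matricellular Ccn1, which rose by 1.15 ± 0.22 with BFA and 0.92 ± 0.22 with EHT-1864. The lower SRF and YAP call was 0 without DMSO array 1 or 3 or EHT-1864 array 2 or 3. Of 22 matrix, adhesion and mesenchymal genes 7 were lower and 1 higher (6 and 2 after loess), and the integrin Itgav had differences of -1.29 ± 0.11 with both compounds. Of the mitosis genes 6 of 24 (5 after loess) and of the DNA replication genes 5 of 27 were called lower with both, shares near the 20.8% of probes above the floor. The mitosis median was -1.09 with BFA and -0.07 with EHT-1864, and the replication median -1.07 with BFA and 0.18 with EHT-1864. Of the replication genes 5 were also called in opposite directions, and the 5 lower calls were 3 after a further quantile normalization. NRF2 targets had 2 higher and 5 lower of 13 (1 and 4 after loess). Me1, which had the smallest pooled adjusted p of those called, had differences of -1.80 ± 0.12 with BFA and -1.52 ± 0.12 with EHT-1864. Among the higher ones the heme oxygenase Hmox1 rose by 1.93 ± 0.13 with BFA and 0.38 ± 0.13 with EHT-1864. The 2 higher NRF2 calls were 0 without EHT-1864 array 3 or any single DMSO array in hypoxia, and 1 without EHT-1864 array 1 or 2 or normoxia array 1 or 2.

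Of 28 Rac, Arp2/3 and WAVE genes 4 were lower with both (2 lower and 1 higher after loess, 1 lower after a further quantile normalization). That share lies between those of all probes (11.1%) and of probes above the floor (20.8%), so the list did not stand apart. Of 26 respiratory chain genes 1 was higher and 1 lower (4 and 0 after loess). Without most single arrays the higher respiratory chain call was 0. Rac1 had differences of -0.47 ± 0.11 with BFA and 0.02 ± 0.11 with EHT-1864 (limma adjusted p = 0.918). Of 18 ribosome biogenesis genes 1 was higher and 1 lower (0 higher when any single BFA array or hypoxia DMSO array was left out), and of 16 ribosomal protein genes 0 were called with both (1 higher after loess).

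Genes of the secretory pathway did not share a direction. Of 23 ER chaperone and ERAD genes, 21 were higher with BFA and 10 lower with EHT-1864, 10 were called in opposite directions and 2 were higher with both, or 1 without EHT-1864 array 1, DMSO array 1 or DMSO array 3. Those 2 were Dnajb9, which rose by 2.35 ± 0.12 with BFA and 0.43 ± 0.12 with EHT-1864, and Derl3, which rose by 2.56 ± 0.13 and 0.55 ± 0.13. Hspa5, the chaperone BiP, had 13.24, 13.35 and 13.31 with BFA and 11.36, 11.34 and 11.44 with EHT-1864, against 12.01, 12.03 and 12.04 with DMSO. Its pooled difference of 0.31 ± 0.09 (limma adjusted p = 0.0111, and 0.134 after a further quantile normalization) is the mean of a rise and a fall. Of 35 COPII, COPI, ARF and Golgi genes 0 were called with both in the same direction (1 after loess) and 8 in opposite directions, while the BFA target Gbf1, an ARF exchange factor, had differences of 1.36 ± 0.13 with BFA and -0.55 ± 0.13 with EHT-1864.

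Over all probes, 621 (2.80%) were called in opposite directions, 282 higher with BFA and lower with EHT-1864 and 339 the other way. In these genes the pooled difference averages changes of opposite sign. Kdelr3, which retrieves escaped ER proteins, had 9.24, 9.74 and 9.64 with BFA and 6.69, 6.51 and 6.69 with EHT-1864, against 8.16, 8.16 and 8.22 with DMSO. The DMSO arrays lay between the compound groups. Mest, an imprinted gene, had 6.62, 7.63 and 7.58 with BFA (2 arrays above the floor) and 11.60, 11.01 and 11.32 with EHT-1864, against 9.66, 9.63 and 9.70 with DMSO.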

How the data were processed

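RNA was measured on 12 arrays (Clarion S mouse, 4 groups of 3). The deposited values are log2 signals per transcript cluster, which the authors made by RMA in Affymetrix Expression Console, per the submitters' processing notes. RMA corrects background, quantile-normalizes arrays together and summarises probes, so a change in total RNA is not visible. The build, versions and settings are not given in the sources used here. Coordinates are printed for promoters alone.

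Of 28846 rows, 6640 controls were left out and 22206 probes tested without a filter. The platform annotation gave the names, with 19572 matched to 1 symbol of the GRCm38.p6 gene table and 2634 unnamed. Of 55 genes with several probes, 3 had called probes of opposite sign, and the probe with the highest mean stood for a gene in the lists. All 12 arrays were fitted with limma 3.58.1 (R 4.3.3; lmFit, eBayes, group means, residual df 8), with Benjamini-Hochberg adjustment over all probes and a threshold of 0.05. The number of arrays limits the precision. The fit was tested on simulated data. Named genes were, among same-direction calls with separated arrays and a group above the floor, the 12 probes of each direction with the largest smaller change, 3 members of each list by pooled adjusted p, fixed genes, and 4 opposite probes of each kind. Members, lists, tests and motifs were chosen with earlier results of these data known. Alternatives were cyclic loess, quantile normalization, median subtraction, 3 filters on dim probes, another variance model, array weights, the 9 hypoxia arrays alone, a replicate block, and leaving out each array.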

Additional observations from a re-analysis of the deposited data

Results flagged for a closer look

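Srxn1, Kdelr3, Slc7a11, Mageh1, Epha3, Mest, Arhgap6 and Adamts1 were listed because BFA and EHT-1864 moved them in opposite directions against DMSO in hypoxia, with a called difference between the compounds in limma. The difference, BFA minus EHT-1864 on the log2 scale, was 3.05 for Srxn1, a sulfiredoxin, 2.91 for Kdelr3, 2.93 for the cystine transporter Slc7a11 and 2.56 for Mageh1. These 4 were higher with BFA and lower with EHT-1864 than with DMSO. It was -3.35 for the ephrin receptor Epha3, -4.03 for Mest, -2.81 for Arhgap6 and -2.50 for the metalloproteinase Adamts1, which were lower with BFA and higher with EHT-1864. Epha3 was below the floor on all 3 BFA arrays, so its difference is the fitted value and no measured fold. The largest limma adjusted p of these 8 differences was 2.89e-07, and on every array the compound groups lay on opposite sides of the DMSO arrays. Groups of 3 arrays were not tested for outlying arrays.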

How the results depend on the processing

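Array weights and the fit of 1 compound group were run for the counts over all probes alone, and the filters on dim probes for counts and lists. Under the alternatives run for them, no called gene named above turned its pooled direction, and the list medians kept their sign apart from ribosome biogenesis, the respiratory chain and the markers of astrocytes, neurons and fibroblasts. The pooled calls (9972, with 4852 higher and 5120 lower) were 3757, 1498 and 2259 when the 6 compound arrays were fitted as 1 group, since the gap between the compounds then counts as spread. With probes kept that reached a log2 signal of 6 on 3 or more arrays, the pooled higher calls were 1987 and those with both 881, and with a signal above the floor 1945 and 855, where fewer probes were tested (10545 and 10991). Leaving out 1 array gave 7728 to 10578 pooled calls (3429 to 5224 higher, 4299 to 5354 lower) and 2889 to 4383 calls with both (954 to 1767 higher, 1935 to 2616 lower). Same-numbered arrays did not pair: 1 of 18 pairs correlated over 0.1 and 3 of 12 arrays matched their own number best. A fit with the replicate number as a block gave 9595 pooled calls and 3756 with both, or 7995 and 3285 after loess. Of the named genes, the pooled calls of Nes, C1qb, Hspa5, Epas1, Gbf1 and Uqcrc2 were lost under at least 1 alternative, and Mageh1, Rac1, Egfr and Adamts1 gained one. Both C1qb and Egfr were below the floor on every array, so their differences are not measured folds. Signal over background limits the rises: 573 of 1573 were above the floor on all 3 arrays of a hypoxia group, and 1086 of 1492 of those called after loess.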
